A study of Mus musculus with 12 samples.

Results

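The genes described here make or act on prostaglandins, leukotrienes and the fatty acid they start from, and comprise Pla2g2e, Pla2g4a, Ptgs1, Ptgs2, Ptgs2os2, Ptges, Hpgds, Alox5, Alox5ap and Ltc4s. They are 10 of the 55471 genes of the count table, found by symbol. The members were chosen by the count levels of Pla2g2e and Ptgs2os2, which lay on opposite sides of the vector cells with either of 2 ABL1 fusions, so the values of that pair are given as a description and were not tested. RNA was sequenced from 12 lines of Ba/F3, a mouse pro-B cell line that normally needs interleukin-3 (IL-3) to live. There were 4 lines each with BCR-ABL1 and with SFPQ-ABL1, each fusing another protein to the tyrosine kinase ABL1 and grown without IL-3, and 4 with the empty MSCV retroviral vector, grown with 0.5 ng/ml murine IL-3. The lines of a group are independent of each other per the labels. Presence of a fusion and absence of IL-3 cannot be told apart in a comparison with MSCV, whereas SFPQ-ABL1 against BCR-ABL1 is free of that difference. Both comparisons with MSCV share the same 4 vector lines.

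Phospholipase A2 enzymes cut arachidonate out of membrane phospholipids. Cyclooxygenases turn it into the precursor of prostaglandins and thromboxane, and 5-lipoxygenase with its membrane partner FLAP turns it into leukotrienes. In blood and immune tissue these lipids are made above all by mast cells, granulocytes, macrophages and platelets and act on receptors of neighbouring cells.

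Libraries held 59355018 to 80616227 gene counts, and 17197 genes passed the filter on low counts. Levels are in CPM, counts scaled to the library total with TMM factors, as mean ± SD of 4 lines. RPKM, which divides CPM by exon length in kilobases, serves to compare genes with each other. Unless another tool is named, p-values are two-sided, come from edgeR's quasi-likelihood test on all 12 libraries and are adjusted over all genes tested by the Benjamini-Hochberg method, with 0.05 as the threshold of a call. Of the 10 members, 9 passed the filter and Ptgs2 did not. The labels were checked with the exon counts of Abl1, of which exon 9 stood out most. It had 13.6 ± 5.45 exon CPM with BCR-ABL1, 16.9 ± 9.23 with SFPQ-ABL1 and 0.0508 ± 0.00347 with MSCV, and SFPQ-ABL1 line 2 had the lowest value of both fusion groups at 4.29. Other exons moved far less. Over all exons with a ratio to MSCV, exon 9 included, the median was 1.71 with BCR-ABL1 (11 exons) and 1.15 with SFPQ-ABL1 (10 exons). Exon 7 had ratios of 8.61 with BCR-ABL1 and 9.47 with SFPQ-ABL1, and exon 4 had 3.22 and 3.46. For exon 11 the BCR-ABL1 ratio was 0.86 and the SFPQ-ABL1 ratio 0.926. Exon 9 did not separate the fusions (ratio of 1.24 for SFPQ-ABL1 over BCR-ABL1), but exon 3 had 3.53 ± 0.844 exon CPM with BCR-ABL1, 0.295 ± 0.0846 with SFPQ-ABL1 and 0.321 ± 0.116 with MSCV. Among 15 early B cell markers, the number that reached 1 CPM in any line was 2 in each group, the antigen receptor chains Cd79a and Cd79b, and Il7r had no count in any line.

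Pla2g2e (ENSMUSG00000028751, chromosome 4, 138877942 to 138882817, plus strand, mm10) encodes a secreted phospholipase A2. Ptgs2os2 (ENSMUSG00000097754, chromosome 1, 150159043 to 150164948, minus strand) is annotated as a long intergenic non-coding RNA near the gene of cyclooxygenase-2. Pla2g4a (ENSMUSG00000056220, chromosome 1, 149829618 to 149961290, minus strand) encodes the cytosolic phospholipase A2 that is selective for arachidonate. Their promoters are shown because of the 10 members these differed most between the fusions, each from 250 bases before to 50 bases after the RefSeq start on GRCm38.p6, on the strand of the gene. Capitals mark matches to 7 motifs searched on both strands.
Pla2g2e, chr4:138877692-138877991, plus strand: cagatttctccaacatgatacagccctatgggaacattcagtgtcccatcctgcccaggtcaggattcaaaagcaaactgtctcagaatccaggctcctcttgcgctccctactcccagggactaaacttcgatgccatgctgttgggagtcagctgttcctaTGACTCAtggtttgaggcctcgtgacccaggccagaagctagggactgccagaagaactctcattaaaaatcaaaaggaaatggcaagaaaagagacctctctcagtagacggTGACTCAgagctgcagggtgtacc
Ptgs2os2, chr1:150164899-150165198, minus strand: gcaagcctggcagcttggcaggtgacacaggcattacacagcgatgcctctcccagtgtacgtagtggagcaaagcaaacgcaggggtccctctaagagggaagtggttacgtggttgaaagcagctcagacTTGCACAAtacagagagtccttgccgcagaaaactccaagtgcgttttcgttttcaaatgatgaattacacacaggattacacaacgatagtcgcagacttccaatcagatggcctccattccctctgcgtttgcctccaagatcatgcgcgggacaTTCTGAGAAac
Pla2g4a, chr1:149961241-149961540, minus strand: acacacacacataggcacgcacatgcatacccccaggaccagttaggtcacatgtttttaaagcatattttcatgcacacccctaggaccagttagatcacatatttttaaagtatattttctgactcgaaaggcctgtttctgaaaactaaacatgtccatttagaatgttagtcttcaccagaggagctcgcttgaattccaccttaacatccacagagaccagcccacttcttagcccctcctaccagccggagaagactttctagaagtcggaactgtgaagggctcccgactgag

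The motifs searched were AP-1 with the letters TGACTCA, a STAT site with TTCNNNGAA and the cyclic AMP element with TGACGTCA. For C/EBP the letters were TTGCNNAA, for RUNX factors they were TGTGGT, for GATA factors AGATAA and for the E-box CACGTG. No match overlapped another in the 3 windows shown. The Pla2g2e window held AP-1 letters 87 bases before and 26 bases after the start. Of 32851 mouse promoter windows of the same length, 5.2% held AP-1 letters and 0.222% held them 2 or more times. The Ptgs2os2 window held STAT letters 39 bases after the start, as 8.3% of windows did, and C/EBP letters 118 bases before it, as 10.8% did. None of the 7 motifs was found in the Pla2g4a window.

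Among the phospholipases, Pla2g2e was 3.26-fold higher with BCR-ABL1 and 4.75-fold lower with SFPQ-ABL1 than with MSCV, at a low level in every group. Its level was 1.83, 2.26, 2.06 and 1.91 CPM in BCR-ABL1 lines 1 to 4. In SFPQ-ABL1 lines 1 to 4 it was 0.0804, 0.143, 0.158 and 0.131 CPM, from 6, 11, 13 and 8 counts. In MSCV lines 1 to 4 it was 0.453, 0.766, 0.754 and 0.491 CPM. The lines of the 3 groups did not overlap, and every BCR-ABL1 line stood above and every SFPQ-ABL1 line below every MSCV line. Means were 2.02 ± 0.19, 0.128 ± 0.0337 and 0.616 ± 0.167 CPM with BCR-ABL1, SFPQ-ABL1 and MSCV (SD, n = 4 each). The log2 fold changes were 1.71 ± 0.24 (SE) for BCR-ABL1 and -2.25 ± 0.27 for SFPQ-ABL1 over MSCV, and -3.96 ± 0.27 for SFPQ-ABL1 over BCR-ABL1, 15.5-fold lower with SFPQ-ABL1. Exon counts were few, 69 in all against 780 gene counts, and gave a smaller rise. In the 4 of 5 exons with a ratio, BCR-ABL1 over MSCV was 1.04 to 2.18 with a median of 1.54. With SFPQ-ABL1 only exon 3 had a count, which was 1.

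Pla2g4a, the cytosolic enzyme, rose with BCR-ABL1 and was at a much higher level than Pla2g2e. Its level was 160, 176, 196 and 308 CPM in BCR-ABL1 lines 1 to 4. It was 54.8, 94.6, 53.1 and 61.4 CPM in SFPQ-ABL1 lines 1 to 4, and 60.7, 44.8, 57.6 and 59.6 CPM in MSCV lines 1 to 4. Every BCR-ABL1 line lay above all 8 other lines, with line 4 highest, whereas the SFPQ-ABL1 and MSCV lines overlapped. The 3.77-fold rise with BCR-ABL1 passed the test (log2 fold change 1.92 ± 0.23 SE, adjusted p = 7.55e-05), and the log2 fold change was 1.67 without BCR-ABL1 line 4 (adjusted p = 0.000158). Levels were 3.18-fold lower with SFPQ-ABL1 than with BCR-ABL1 (-1.67 ± 0.22, adjusted p = 0.00032) and did not pass against MSCV (0.24 ± 0.22, adjusted p = 0.585). SFPQ-ABL1 line 2, the highest of its group here, was the line lowest for Abl1 exon 9, and the log2 fold change over MSCV was 0.01 without it. Both calls of Pla2g4a held in each of 21 alternative analyses.

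**Figure D1:**
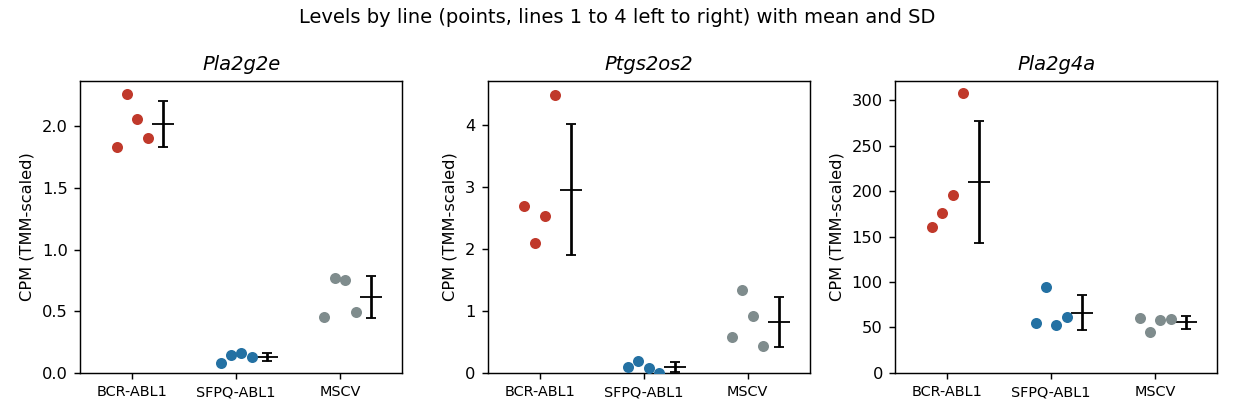
TMM-scaled CPM (vertical axes, linear from 0) of Pla2g2e, Ptgs2os2 and Pla2g4a in each of 12 lines, with points for lines 1 to 4 of BCR-ABL1, SFPQ-ABL1 and MSCV and bars for mean and SD. The 3 groups of points are apart for Pla2g2e and Ptgs2os2. For Pla2g4a the SFPQ-ABL1 points, from 53.1 to 94.6 CPM, overlap with the MSCV points, from 44.8 to 60.7 CPM, and the BCR-ABL1 points start at 160 CPM.

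Exon counts of Pla2g4a were higher with BCR-ABL1 than with MSCV in each exon that could be compared. Summed over exons that do not overlap, the exon table held only 13.8% as many counts for Pla2g4a as the gene table. Which reads the exon table holds is not given in the sources. In 17 of the 18 exons of its transcript Pla2g4a-201 the counts allowed a ratio, and the ratio of mean exon CPM with BCR-ABL1 over MSCV was 2.84 to 5.99 with a median of 3.73. With SFPQ-ABL1 over MSCV the ratio was 0.853 to 2.15 with a median of 1.22.

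**Figure D2:**
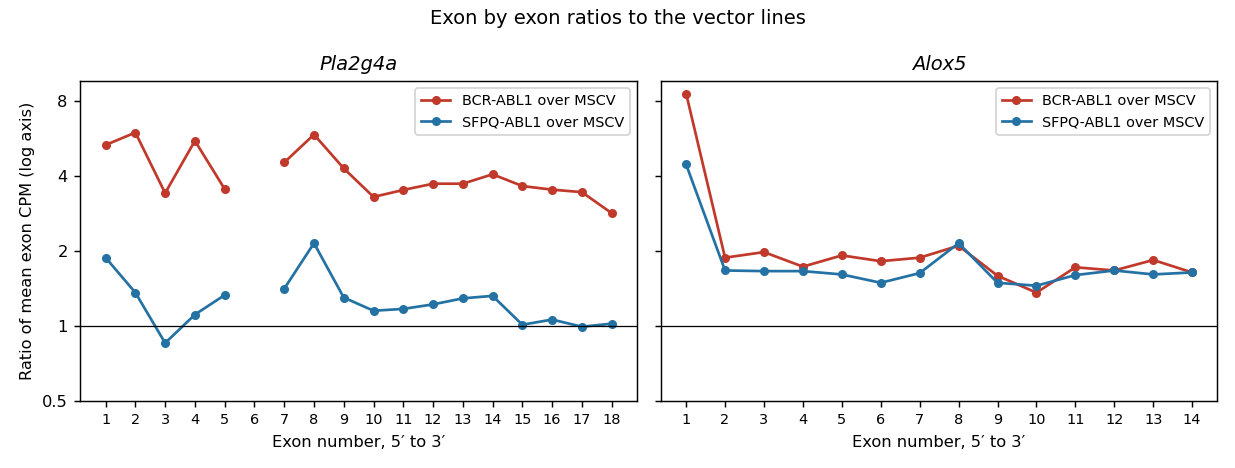
Ratio of mean exon CPM (log axis) by exon number from 5′ to 3′ for Pla2g4a and Alox5, with red for BCR-ABL1 over MSCV and blue for SFPQ-ABL1 over MSCV. All 17 Pla2g4a ratios for BCR-ABL1 are at 2.84 or above, and Alox5 exon 1 is at 8.6 for BCR-ABL1 and 4.46 for SFPQ-ABL1 while no other Alox5 exon exceeds 2.15.

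Of the other secreted phospholipase genes next to Pla2g2e only Pla2g5 passed the filter. It had the rise with BCR-ABL1 but not the fall with SFPQ-ABL1. Within 300 kb of it 19 other genes are annotated, 6 of them passed the filter and 5 had no count in any line. Pla2g5, another secreted phospholipase A2 gene that starts 14.5 kb away, had 69.2, 72.7, 70.4 and 81.6 CPM in BCR-ABL1 lines 1 to 4, 53.3, 55.8, 49.0 and 51.8 CPM in SFPQ-ABL1 lines, and 56.4, 55.6, 46.3 and 48.8 CPM in MSCV lines. It rose with BCR-ABL1 over MSCV (log2 fold change 0.51 ± 0.09 SE, adjusted p = 0.00101) and was lower with SFPQ-ABL1 than with BCR-ABL1 (-0.49 ± 0.09, adjusted p = 0.0019). Against MSCV, SFPQ-ABL1 gave 0.02 ± 0.09 (adjusted p = 0.931), so the SFPQ-ABL1 lines were not below the vector lines as they were for Pla2g2e. Pla2g2a, Pla2g2c, Pla2g2d and Pla2g2f, the closest relatives in the cluster, averaged at most 0.0532 CPM in any group and were below the filter. Gm16287 fell to 0.167 ± 0.0499 CPM with BCR-ABL1, against 0.502 ± 0.195 CPM with MSCV (-1.59 ± 0.42, adjusted p = 0.0113). Gm16287 was higher with SFPQ-ABL1, at 0.404 ± 0.174 CPM, than with BCR-ABL1 (1.27 ± 0.42, adjusted p = 0.0415), a call that held without SFPQ-ABL1 line 1 or MSCV line 2 or 3 but was lost in the other 9 analyses that left out 1 line (adjusted p of 0.0529 to 0.111), without a filter on low counts (0.0506) and with limma-voom (0.0855). Nbl1 averaged 0.447 ± 0.0921 CPM with BCR-ABL1, 0.246 ± 0.0555 with SFPQ-ABL1 and 0.371 ± 0.11 with MSCV, the same order of means as Pla2g2e, but each fusion overlapped with MSCV. It was lower with SFPQ-ABL1 than with BCR-ABL1 (-0.87 ± 0.29, adjusted p = 0.0423), a call that held without BCR-ABL1 line 1, SFPQ-ABL1 line 4 or MSCV line 1 or 2 but was lost in the other 8 analyses that left out 1 line (adjusted p of 0.0517 to 0.113). It was also lost with the replicate number as a block (adjusted p = 0.0556), without scaling factors (0.0582) and without a filter on low counts (0.128). Otud3, Tmco4 and Minos1 passed no test in any comparison.

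Across 23 other phospholipase A2 genes on a fixed list, 13 passed the filter. With BCR-ABL1 against MSCV 2 rose and 1 fell, with a median log2 fold change of -0.05 against -0.01 over all genes, of which 32.1% were called (15.8% higher and 16.3% lower). Pla2g16, a membrane phospholipase, fell to 30.3 CPM with BCR-ABL1, against 53.9 CPM with MSCV (log2 fold change -0.83 ± 0.12 SE, adjusted p = 0.000224). Pafah1b2, a catalytic subunit that inactivates platelet-activating factor, rose to 194 CPM, against 148 CPM with MSCV (0.39 ± 0.08, adjusted p = 0.00183). With SFPQ-ABL1 against MSCV edgeR called 0 of the 13, where it called 1.79% of all genes. Of the 13, 3 had an unadjusted p under 0.05, DESeq2 called 3 and limma-voom 0. Over all 17197 genes DESeq2 called 1131 and limma-voom 285. With SFPQ-ABL1 against BCR-ABL1 3 were higher and 4 lower, where 26% of all genes were called, among them Pla2g4c, another cytosolic phospholipase A2, at 3.78 ± 1.79 CPM with SFPQ-ABL1 and 1.02 ± 0.356 CPM with BCR-ABL1 (1.89 ± 0.38, adjusted p = 0.0032), and the secreted Pla2g12a at 60.2 CPM with SFPQ-ABL1 and 93.2 CPM with BCR-ABL1 (-0.63 ± 0.15, adjusted p = 0.00844).

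Among the cyclooxygenases, Ptgs1 was abundant and Ptgs2 was close to absent from the counts. Ptgs2 (ENSMUSG00000032487, chromosome 1, 150100031 to 150108227, plus strand) encodes the inducible enzyme. It had 3 counts in all with BCR-ABL1, 0 with SFPQ-ABL1 and 1 with MSCV, and 9 of 12 libraries had none, where a count of 0 allows a level of up to 0.0365 to 0.0491 CPM by library (3 counts, counting error only). Ptgs1 (ENSMUSG00000047250, chromosome 2, 36230426 to 36252272, plus strand), the constitutive enzyme, had 313, 301, 325 and 300 CPM in BCR-ABL1 lines 1 to 4. It had 289, 381, 338 and 444 CPM in SFPQ-ABL1 lines and 494, 311, 390 and 484 CPM in MSCV lines. The BCR-ABL1 lines were close together and overlapped with MSCV through line 2 of the vector group. Ptgs1 was lower with BCR-ABL1 than with MSCV (310 ± 11.7 against 420 ± 86.6 CPM, log2 fold change -0.44 ± 0.15 SE, adjusted p = 0.0421). This call was lost when any 1 of BCR-ABL1 lines 1 to 4, SFPQ-ABL1 line 3 or MSCV lines 1, 3 and 4 was left out, with an adjusted p of 0.0505 to 0.122 and a log2 fold change of -0.47 to -0.34, and also with limma-voom (adjusted p = 0.0534). SFPQ-ABL1 did not pass against MSCV (-0.21 ± 0.15, adjusted p = 0.491) or against BCR-ABL1 (0.23 ± 0.15, adjusted p = 0.288).

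Ptgs2os2 was 3.59-fold higher with BCR-ABL1 and 8.68-fold lower with SFPQ-ABL1 than with MSCV, the order of groups seen in Pla2g2e. Its level was 2.7, 2.1, 2.54 and 4.49 CPM in BCR-ABL1 lines 1 to 4. In SFPQ-ABL1 lines 1 to 4 it was 0.0938, 0.195, 0.073 and 0 CPM, from 7, 15, 6 and 0 counts, and the 0 of line 4 allows up to 0.0491 CPM. In MSCV lines 1 to 4 it was 0.579, 1.34, 0.926 and 0.43 CPM. The groups did not overlap, and BCR-ABL1 line 4 stood highest, as it did for Pla2g4a. Means were 2.96 ± 1.06, 0.0904 ± 0.0804 and 0.82 ± 0.407 CPM with BCR-ABL1, SFPQ-ABL1 and MSCV. The log2 fold changes were 1.84 ± 0.49 (SE) for BCR-ABL1 and -3.12 ± 0.58 for SFPQ-ABL1 over MSCV, and -4.96 ± 0.60 for SFPQ-ABL1 over BCR-ABL1. Without BCR-ABL1 line 4 the first was 1.57, and without SFPQ-ABL1 line 2, which held 15 of the 28 counts of its group, the second was -3.78. In the exon table exons 1 and 2 of Ptgs2os2-201 had 37 and 39 counts with BCR-ABL1, 0 and 1 with SFPQ-ABL1 and 6 and 21 with MSCV. Summed over exons that do not overlap, that table held only 9.61% as many counts for Ptgs2os2 as the gene table.

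Every BCR-ABL1 line above and every SFPQ-ABL1 line below every MSCV line, the order that brought Pla2g2e and Ptgs2os2 into the set, was found in 43 of the 17197 genes (0.25%), 34 of them protein-coding. Pla2g2e and Ptgs2os2 are among the 43. In 7 genes, counted without leaving that pair out, the rise with BCR-ABL1 and the fall with SFPQ-ABL1 both passed the test against MSCV. Ptgs2os2 and Ptgs2 lie 50.8 kb apart without overlap, and Pla2g4a lies 139 kb from Ptgs2 and 198 kb from Ptgs2os2. Within 300 kb of the stretch from Pla2g4a to Ptgs2os2, 17 genes beside Ptgs2 are annotated. Of these 6 passed the filter, Ptgs2os2 and Pla2g4a included, and 4 had no count. Odr4, the next one to pass a test beside Pla2g4a, had 85.4 ± 12.8 CPM with BCR-ABL1, 64.8 ± 6.53 with SFPQ-ABL1 and 63.7 ± 2.98 with MSCV (log2 fold change 0.42 ± 0.11 SE for BCR-ABL1 over MSCV, adjusted p = 0.0105). Ptgs2os, the antisense neighbour at the start of Ptgs2, averaged at most 0.00672 CPM in any group, and Tpr, Prg4 and Rbm3-ps passed no test. Whether reads of antisense genes were kept apart is not stated in the sources.

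Per length, in RPKM, the 5-lipoxygenase genes were with Ptgs1 the most abundant of the set. Alox5 (ENSMUSG00000025701, chromosome 6, 116410077 to 116461178, minus strand) encodes the enzyme. It had 292, 211, 387 and 312 CPM in BCR-ABL1 lines 1 to 4, 173, 348, 283 and 292 CPM in SFPQ-ABL1 lines and 278, 131, 157 and 130 CPM in MSCV lines. MSCV line 1 lay within the range of both fusion groups, and the other 3 vector lines lay below all fusion lines. Alox5 was higher with BCR-ABL1 than with MSCV (301 ± 72.1 against 174 ± 70.6 CPM, log2 fold change 0.79 ± 0.27 SE, adjusted p = 0.0396). That call was lost without BCR-ABL1 line 1, 3 or 4, SFPQ-ABL1 line 3 or 4, or MSCV line 2, 3 or 4, with an adjusted p of 0.0526 to 0.117 and a log2 fold change of 0.64 to 0.79. It was also lost with the replicate number as a block (0.80, adjusted p = 0.0518). SFPQ-ABL1 lines averaged 274 ± 73.2 CPM and did not pass against MSCV (0.65 ± 0.27, adjusted p = 0.216) or against BCR-ABL1 (-0.13 ± 0.27, adjusted p = 0.748).

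The first exon of Alox5 stood apart from the rest, an observation picked out after its values were seen. Exon 1 (chromosome 6, 116460875 to 116461178) had 38, 15, 68 and 53 counts in BCR-ABL1 lines 1 to 4, 15, 38, 27 and 19 counts in SFPQ-ABL1 lines and 11, 1, 3 and 7 counts in MSCV lines. Each fusion line was above each vector line. Its mean was 0.643 ± 0.361, 0.333 ± 0.121 and 0.0748 ± 0.0581 exon CPM with BCR-ABL1, SFPQ-ABL1 and MSCV, a ratio to MSCV of 8.6 with BCR-ABL1 and 4.46 with SFPQ-ABL1. Over all 14 exons the median ratio was 1.83 with BCR-ABL1 and 1.63 with SFPQ-ABL1. The difference between exons was not tested. Summed over exons that do not overlap, the exon table held only 17.5% as many counts for Alox5 as the gene table.

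Alox5ap (ENSMUSG00000060063, chromosome 5, 149264767 to 149288153, plus strand) encodes FLAP, which presents arachidonate to 5-lipoxygenase. It had 119, 106, 94.2 and 155 CPM in BCR-ABL1 lines 1 to 4, 75.3, 125, 133 and 135 CPM in SFPQ-ABL1 lines and 181, 137, 195 and 235 CPM in MSCV lines. All SFPQ-ABL1 lines lay below all MSCV lines, while BCR-ABL1 line 4 overlapped with MSCV line 2. Alox5ap was lower with BCR-ABL1 than with MSCV (119 ± 26.3 against 187 ± 40.5 CPM, log2 fold change -0.66 ± 0.21 SE, adjusted p = 0.0282). The call was lost without BCR-ABL1 line 1, 2 or 3 or MSCV line 3 or 4 (adjusted p of 0.0528 to 0.0868, log2 fold change of -0.67 to -0.53). With SFPQ-ABL1 the log2 fold change over MSCV was -0.68 ± 0.21 without passing edgeR's test (adjusted p = 0.112), and DESeq2 called it (adjusted p = 0.036). The fusions differed by -0.02 ± 0.21 (SFPQ-ABL1 over BCR-ABL1, adjusted p = 0.966). So the enzyme gene and the gene of its partner had fold changes of opposite sign in both comparisons with MSCV, though only those with BCR-ABL1 passed edgeR's test.

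Ltc4s, Hpgds and Ptges, whose enzymes finish leukotriene C4, prostaglandin D2 and prostaglandin E2, were at low levels in every group. Ltc4s, for leukotriene C4 synthase, averaged 0.391 ± 0.124, 0.284 ± 0.0676 and 0.304 ± 0.16 CPM with BCR-ABL1, SFPQ-ABL1 and MSCV, from 10 to 36 counts per line. Hpgds, for the haematopoietic prostaglandin D synthase, averaged 0.247 ± 0.0634 CPM with BCR-ABL1, 0.272 ± 0.122 with SFPQ-ABL1 and 0.177 ± 0.0498 with MSCV, from 8 to 26 counts. Ptges, for an inducible prostaglandin E synthase, had 0.512, 0.863, 0.941 and 0.991 CPM in BCR-ABL1 lines 1 to 4, 0.322, 0.987, 2.02 and 2.39 CPM in SFPQ-ABL1 lines and 0.478, 0.74, 2.06 and 2.84 CPM in MSCV lines. Lines of the same number in the SFPQ-ABL1 and MSCV groups were alike in Ptges, and the groups overlapped. None of these genes passed edgeR's test in any comparison, with an adjusted p of 0.283 to 0.951 and log2 fold changes of -0.88 to 0.79, whose SE was 0.36 to 0.60.

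**Figure D3:**
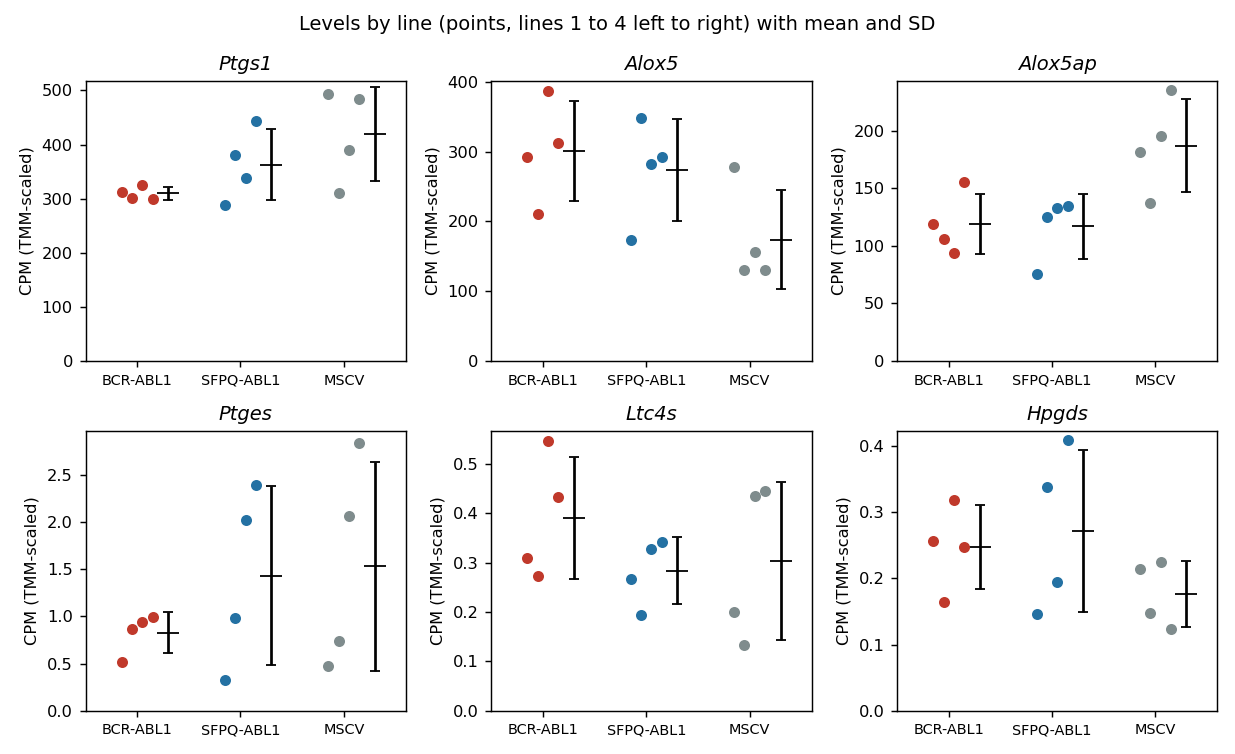
TMM-scaled CPM (vertical axes, linear from 0) of Ptgs1, Alox5, Alox5ap, Ptges, Ltc4s and Hpgds in each of 12 lines, with points for lines 1 to 4 of BCR-ABL1, SFPQ-ABL1 and MSCV and bars for mean and SD. The points of the groups overlap in all panels except for Alox5ap between SFPQ-ABL1 and MSCV, where the highest SFPQ-ABL1 line is at 135 CPM and the lowest MSCV line at 137 CPM.

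Of the 7 members tested, 2 rose and 2 fell with BCR-ABL1 against MSCV, where 32.1% of all genes tested were called (15.8% higher and 16.3% lower). The count of 4 fell to 1 without BCR-ABL1 line 1 or 3 or MSCV line 3 or 4, and to 2 without SFPQ-ABL1 line 3 or BCR-ABL1 line 2 or 4, and Pla2g4a was called each time. With SFPQ-ABL1 against MSCV edgeR called 0 of the 7, where 1.79% of all genes were called (0.814% higher and 0.977% lower). Of these 7, 2 had an unadjusted p under 0.05, DESeq2 called 1, which was Alox5ap, and limma-voom called 0. Over all 17197 genes DESeq2 called 1131 and limma-voom 285. With SFPQ-ABL1 against BCR-ABL1 1 was lower and none higher, where 26% of all genes were called (13.2% higher and 12.8% lower). Lines did not overlap for 1 of the 7 in each comparison, against 31.6% of all genes with BCR-ABL1 against MSCV, 11.2% with SFPQ-ABL1 against MSCV and 27.9% between the fusions. The members were chosen with results known, so these counts are a description.

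Per length, Alox5ap, Ptgs1 and Alox5 led in each group, in differing order, with Pla2g4a next, and the order of the low members differed between groups. In RPKM, Alox5ap, Ptgs1 and Alox5 had 83.5 ± 18.5, 79.8 ± 3.0 and 73.2 ± 17.6 with BCR-ABL1, and these levels did not differ beyond their spread. Pla2g4a followed with 32.9 ± 10.4, and Pla2g2e, Ptgs2os2, Ltc4s, Ptges and Hpgds had 2.2, 1.69, 0.386, 0.21 and 0.0384. With SFPQ-ABL1, Ptgs1 had 93.5 ± 16.9, Alox5ap 82.6 ± 19.9 and Alox5 66.7 ± 17.8 RPKM, neighbours within their spread, with Pla2g4a at 10.3 ± 3.04. Pla2g2e and Ptgs2os2 had 0.14 and 0.0518 RPKM there, below Ptges at 0.364 and Ltc4s at 0.28. With MSCV, Alox5ap had 132 ± 28.5, Ptgs1 108 ± 22.3 and Alox5 42.4 ± 17.2 RPKM, followed by Pla2g4a at 8.71 ± 1.15, Pla2g2e at 0.672, Ptgs2os2 at 0.47, Ptges at 0.389 and Ltc4s at 0.3.

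The remaining genes of these pathways were taken from fixed lists, and they moved in both directions. Of 15 other prostanoid genes 11 passed the filter. With BCR-ABL1 against MSCV none rose and 2 fell, where 32.1% of all genes were called (median log2 fold change 0.03 against -0.01 over all genes). Ptgr1, which reduces and inactivates prostaglandins and leukotriene B4, fell to 7.34 CPM, against 14.5 CPM with MSCV (-0.98 ± 0.24 SE, adjusted p = 0.00718). Ptgds, a prostaglandin D synthase gene, had 0.06 CPM with BCR-ABL1 and 0.282 CPM with MSCV (adjusted p = 0.0406), a call lost without BCR-ABL1 line 2, 3 or 4 or MSCV line 3 or 4 (adjusted p of 0.0688 to 0.124) and with limma-voom (0.0575). Between the fusions 4 were higher and 1 lower with SFPQ-ABL1, where 13.2% of all genes were higher and 12.8% lower. The thromboxane synthase gene Tbxas1 had 102, 81.1, 126 and 144 CPM in SFPQ-ABL1 lines 1 to 4 and 65.5, 58.1, 66.7 and 74.8 CPM in BCR-ABL1 lines (0.78 ± 0.16, adjusted p = 0.00361). The groups did not overlap for it. Ptgr2, another prostaglandin reductase gene, had 87.4 CPM with SFPQ-ABL1 and 67.8 CPM with BCR-ABL1 (0.37 ± 0.09, adjusted p = 0.0126).

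Of 17 other lipoxygenase and leukotriene genes 11 passed the filter, 3 rose and 2 fell with BCR-ABL1 against MSCV, where 15.8% of all genes rose and 16.3% fell (median -0.17 against -0.01). Mgst3, of the membrane protein family of FLAP and leukotriene C4 synthase, fell to 10.6 ± 1.66 CPM, against 25.3 ± 3.78 CPM with MSCV (-1.25 ± 0.13 SE, adjusted p = 3.94e-05). Dpep2, a dipeptidase gene of cysteinyl leukotriene processing, rose to 1.59 ± 0.399 CPM, against 0.573 ± 0.209 CPM with MSCV (1.47 ± 0.33, adjusted p = 0.00449). Abcc1, an exporter of leukotriene C4, rose to 236 CPM, against 149 CPM with MSCV (0.66 ± 0.16, adjusted p = 0.00816). Between the fusions 3 were higher and 3 lower with SFPQ-ABL1, where 26% of all genes were called. Mgst3 was higher there with SFPQ-ABL1 (19.9 against 10.6 CPM, 0.90 ± 0.13, adjusted p = 0.000479), Dpep2 lower (0.32 against 1.59 CPM, -2.32 ± 0.35, adjusted p = 0.00059) and Abcc1 lower (139 against 236 CPM, -0.76 ± 0.16, adjusted p = 0.00497).

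Of 16 receptor genes for these lipids only 6 passed the filter, and with BCR-ABL1 against MSCV 3 rose and none fell (median 0.65 against -0.01), where 32.1% of all genes were called and 15.8% rose. With 6 genes tested this is a description of the few. Ptgir, the prostacyclin receptor gene, had 33.2, 31.5, 34.4 and 27.8 CPM in BCR-ABL1 lines 1 to 4, 6.67, 17.1, 9.68 and 13.0 CPM in SFPQ-ABL1 lines and 15.1, 13.7, 13.4 and 14.6 CPM in MSCV lines. Every BCR-ABL1 line was above the 8 others. It rose with BCR-ABL1 over MSCV (1.16 ± 0.21 SE, adjusted p = 0.00137) and was lower with SFPQ-ABL1 than with BCR-ABL1 (-1.45 ± 0.22, adjusted p = 0.0006). Ltb4r1, a leukotriene B4 receptor gene, had 14.2 ± 1.25 CPM with BCR-ABL1 and 8.33 ± 1.22 CPM with MSCV (0.76 ± 0.23, adjusted p = 0.0222), a call lost without BCR-ABL1 line 2 or 3 or MSCV line 2 (adjusted p of 0.0545 to 0.0551) and with summed exon counts (0.0648). Ptger4, a prostaglandin E2 receptor gene, had 3.62 ± 1.46 CPM with BCR-ABL1 and 1.75 ± 0.525 CPM with MSCV (1.05 ± 0.33, adjusted p = 0.0281), a call lost without BCR-ABL1 line 2 or 4 or MSCV line 2 or 3 (adjusted p of 0.055 to 0.0988) and with summed exon counts (0.0965).

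Of 20 genes that supply arachidonate or put it back into membranes 14 passed the filter, and with BCR-ABL1 none rose and 5 fell against MSCV (median -0.33 against -0.01). The share called, 35.7%, was near the 32.1% of all genes, of which 15.8% rose and 16.3% fell. The desaturase gene Fads2 fell to 157 ± 25.6 CPM, against 324 ± 35.7 CPM with MSCV (-1.05 ± 0.12 SE, adjusted p = 7.55e-05), and Fads1, the next desaturase of the path to arachidonate, to 225 CPM, against 335 CPM with MSCV (-0.58 ± 0.10, adjusted p = 0.000768). Lpcat3, which places arachidonate in phospholipids, fell to 124 CPM, against 184 CPM with MSCV (-0.57 ± 0.11, adjusted p = 0.00199), and Faah, which hydrolyses the arachidonate amide anandamide, to 23.0 CPM, against 42.4 CPM with MSCV (-0.88 ± 0.10, adjusted p = 6.79e-05). Between the fusions 7 were higher and none lower with SFPQ-ABL1, where 13.2% of all genes were higher and 12.8% lower, among them Fads2 with 300 ± 16.3 CPM against 157 ± 25.6 CPM with BCR-ABL1 (0.93 ± 0.12, adjusted p = 0.000298).

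Of 19 phospholipase C and D genes 11 passed the filter, and none rose and 2 fell with BCR-ABL1 against MSCV, where 32.1% of all genes were called (median -0.19 against -0.01). Pld3, known as a lysosomal nuclease in spite of its name, fell to 26.1 CPM with BCR-ABL1 (-1.39 ± 0.13 SE, adjusted p = 1.82e-05) and to 40.7 CPM with SFPQ-ABL1 (-0.75 ± 0.12, adjusted p = 0.0139), against 68.5 CPM with MSCV. Its SFPQ-ABL1 call was lost without MSCV line 3 (adjusted p = 0.052). Plcl2, a catalytically inactive relative of phospholipase C, had 166 CPM with SFPQ-ABL1 and 76.4 CPM with MSCV (1.12 ± 0.24, adjusted p = 0.0379), with overlapping lines. That call was lost without BCR-ABL1 line 3, SFPQ-ABL1 line 1, 3 or 4 or any MSCV line (adjusted p of 0.0543 to 0.107), with the 8 libraries of the comparison alone (0.0743) and with limma-voom (0.0579). Plch1 had 2.8 CPM with SFPQ-ABL1 and 16.3 CPM with BCR-ABL1 (-2.54 ± 0.46, adjusted p = 0.0019). In SFPQ-ABL1 against MSCV edgeR called 0 genes on the prostanoid, lipoxygenase and leukotriene, receptor and supply lists, where it called 1.79% of all genes. On these lists 2, 6, 1 and 3 genes had an unadjusted p under 0.05, DESeq2 called 1, 2, 1 and 0, and limma-voom called 0 on each. Over all 17197 genes DESeq2 called 1131 and limma-voom 285.

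**Figure D4:**
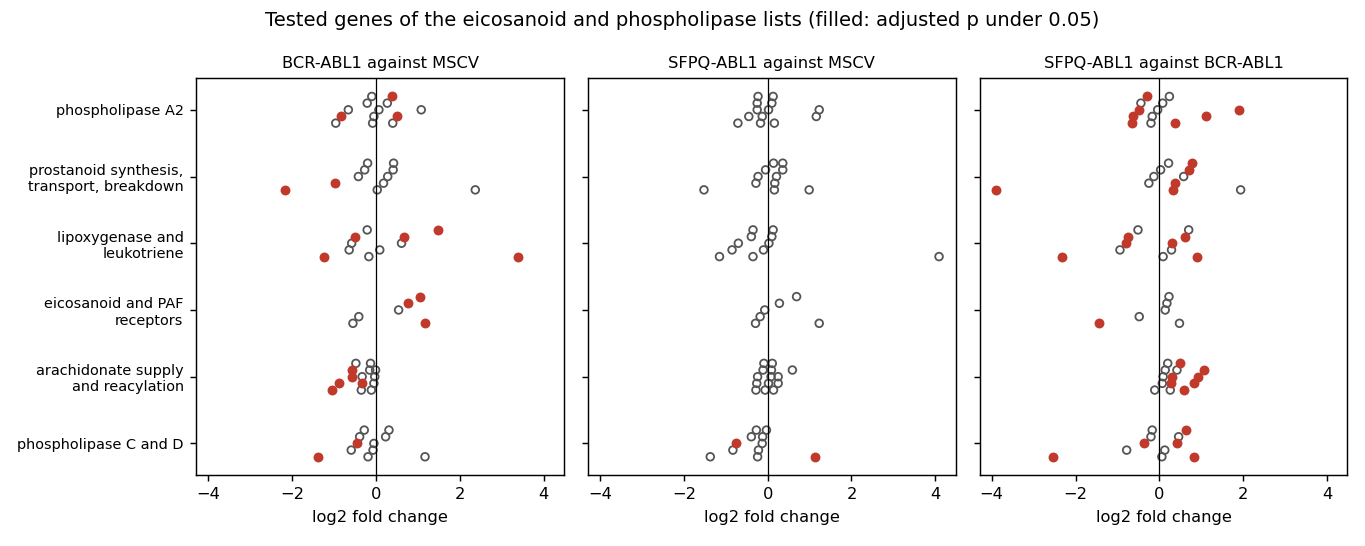
Log2 fold change (horizontal axes) of each tested gene of 6 fixed lists in 3 comparisons, 1 row per list, with filled red points for an adjusted p under 0.05 and open points for the rest. All called points of the supply row lie left of 0 with BCR-ABL1 against MSCV (5 genes) and right of 0 with SFPQ-ABL1 against BCR-ABL1 (7 genes), and the middle panel holds 2 filled points, both in the phospholipase C and D row.

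Cells of the types that make these lipids were checked by 4 marker lists. The 13 mast cell and basophil markers summed to 1347 to 1593 CPM in BCR-ABL1 lines, 817 to 1380 CPM in SFPQ-ABL1 lines and 1371 to 1683 CPM in MSCV lines. The granule protease gene Tpsb2 was at 0 in all lines and Kit at 0 in the BCR-ABL1 and MSCV lines. Fcer1g, Ms4a2, Cma1 and Cpa3, given below, made up only a small part of the BCR-ABL1 and MSCV sums. Of the 6 mast cell and basophil markers tested 1 rose and 3 fell with BCR-ABL1 against MSCV (median -0.61). Over all genes 32.1% were called there (15.8% higher and 16.3% lower). With SFPQ-ABL1 against MSCV none of the 6 rose and 2 fell, where 1.79% of all genes were called. Each of those calls was lost in at least 8 of the 12 analyses that left out 1 line. Fcer1g, a signalling chain of the IgE receptor, fell to 4.84 CPM with BCR-ABL1, against 13.8 CPM with MSCV (-1.51 ± 0.17 SE, adjusted p = 5.45e-05). Ms4a2, the beta chain of that receptor, fell to 6.43 CPM, against 12.5 CPM with MSCV (-0.95 ± 0.15, adjusted p = 0.000596). This call was lost with summed exon counts (-0.38, adjusted p = 0.195). The mast cell chymase gene Cma1 fell to 1.21 CPM, against 6.77 CPM with MSCV (-2.48 ± 0.74, adjusted p = 0.0204). How far the Cma1 call depends on single lines is not given here. The marker that rose, the mast cell protease gene Cpa3, had 0.876, 42.2, 4.75 and 4.35 CPM in BCR-ABL1 lines 1 to 4, and at most 2.35 CPM in any SFPQ-ABL1 line and 0.365 CPM in any MSCV line. Its log2 fold change with BCR-ABL1 over MSCV was 5.96 ± 1.47 (adjusted p = 0.00762), and 3.98 without BCR-ABL1 line 2, where it still passed. The 14 granulocyte and monocyte markers summed to 292 to 441 CPM with BCR-ABL1, 570 to 907 with SFPQ-ABL1 and 465 to 1171 with MSCV. Of 8 tested 1 rose and 3 fell with BCR-ABL1 against MSCV, where 32.1% of all genes were called. The 9 platelet and megakaryocyte markers summed to 760 to 1308 CPM with BCR-ABL1, 671 to 920 with SFPQ-ABL1 and 553 to 1012 with MSCV. Of 7 tested 2 rose and 1 fell with BCR-ABL1 against MSCV (median -0.23), where 32.1% of all genes were called. Gp9, a platelet glycoprotein gene, fell to 10.3 CPM with BCR-ABL1, against 22.6 CPM with MSCV (-1.13 ± 0.32, adjusted p = 0.0158), a call lost without MSCV line 4 (0.0548). Of the risers, the platelet chemokine gene Pf4 had 3.59 to 13.0 CPM with BCR-ABL1, 0.0365 to 0.195 CPM with SFPQ-ABL1 and 0.0538 to 0.292 CPM with MSCV (55.8-fold higher with BCR-ABL1 than with MSCV, adjusted p = 5.45e-05). The 15 early B cell markers summed to 49.2 to 72 CPM with BCR-ABL1, 85.2 to 98.7 with SFPQ-ABL1 and 131 to 152 with MSCV, without overlap between groups. The part of these differences in the values of Pla2g2e, Ptgs2os2 and Pla2g4a was not tested. In such bulk libraries fewer cells with a gene and less RNA of it per cell cannot be told apart.

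The genes most like each member over the 12 libraries were found by Pearson's r of log2 CPM, as a description, since the points share their groups. Of 10515 protein-coding candidates with a mean of at least 1 CPM, the closest to Pla2g2e were Arl8a (0.96), Gm6169 (0.96), Zbtb7b (0.95), Hspb11 (0.95) and Parp6 (0.95). For Ptgs2os2 they were Arhgap6 (0.96), Arl8a (0.95), Rpl13a (0.95), Tbkbp1 (0.94) and Dlgap4 (0.94), so that Arl8a, which had 73.2, 45.1 and 59.6 CPM with BCR-ABL1, SFPQ-ABL1 and MSCV, was near both. Pla2g4a was closest to Ccdc47 (0.98) and Hmga1 (0.98), Ptgs1 to Serhl (0.92) and Oplah (0.91), Alox5 to Brca2 (0.89) and Slc20a2 (0.89), and Alox5ap to Slc48a1 (0.94) and Arhgap18 (0.92). Ltc4s was closest to Nr3c1 (0.94) and N4bp1 (0.93), Ptges to Pygl (0.95), and Hpgds to Alox5 (0.80) and Ccdc112 (0.74).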

How the data were processed

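RNA sequencing covered 12 Ba/F3 lines in 3 groups of 4. Per the labels, washed cell pellets were snap frozen, the PureLink RNA Mini Kit gave total RNA, and Illumina protocols the libraries. The files deposited by the authors hold raw counts for Ensembl genes and exons, not normalized. The submitters' processing notes name Subread, featureCounts and mm10. No source used here gives the release of these tools or of the annotation, whether strand was used, or how reads matching several places were treated. Reads of a gene and its antisense partner may therefore not be told apart. Of the 10 members 6 overlap another annotated gene, none of which exceeded 3.24 CPM in any line. For low members even small overlaps count. Gm26542, on the strand opposite to Ltc4s, reached 0.182 CPM, and Gm17147, opposite to Hpgds, reached 0.121 CPM. The part of such reads in the Ltc4s and Hpgds values was not tested.

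Symbols and coordinates came from GENCODE M21 and matched 55144 of 55471 identifiers. Promoter sequences came from RefSeq and were found for 9 members. Gene counts were analysed with edgeR 4.0.16 in R 4.3.3 after filterByExpr (17197 genes) and TMM scaling, by the quasi-likelihood test (glmQLFit, glmQLFTest) fitted to the 12 libraries by group alone. The test was run on simulated counts with known changes first. Log2 CPM for likeness used a prior count of 2. Gene totals of 59355018 to 80616227 make 1 CPM 61.1 to 82.2 counts. Counts are reads without molecular identifiers, so floors (3 counts) cover counting error only. Replicate pairs of a group differed by a chi-square of 33.1 to 182 per degree of freedom over genes with at least 50 summed counts, so none agreed within sampling noise. Exon CPM are exon counts over the scaled gene totals, and which reads the exon table holds is not given in the sources used here. Summed exon counts of a gene took only exons that do not overlap each other, the longest kept first.

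Named genes were the members and up to 3 genes of each fixed list per comparison with the smallest adjusted p. Cma1, a further called mast cell and basophil marker, was named as well. Also named were the tested genes within 300 kb of Pla2g2e or of the stretch from Pla2g4a to Ptgs2os2. The genes most alike were named too (5 for Pla2g2e and Ptgs2os2, 2 for other members). One of these is not reported here. The members and lists were chosen with earlier results of these data known. Alternatives were other scalings and filters, DESeq2 1.42.0, limma-voom (limma 3.58.1), the 8 libraries of a comparison, a replicate block, summed exon counts and leaving out each library.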

Additional observations from a re-analysis of the deposited data

Results flagged for a closer look

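The response to BCR-ABL1 and to SFPQ-ABL1 differed for 3 members. Pla2g2e had a log2 fold change of -3.96 for SFPQ-ABL1 over BCR-ABL1, and Ptgs2os2 had -4.96. In each case all BCR-ABL1 lines were above and all SFPQ-ABL1 lines below all MSCV lines, and since this order chose these genes the difference was not tested. Pla2g4a had -1.67, a difference that passed edgeR's quasi-likelihood test (adjusted p = 0.00032).

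Alox5ap in SFPQ-ABL1 line 1 stood at 75.3 CPM, far below lines 2 to 4 at 125, 133 and 135 CPM. Its gap to the next line was 0.835 of the range of the group, above the critical value of Dixon's test for 4 values. Chance flags about 1 in 20 groups.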

How the results depend on the processing

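No called value changed sign in any alternative. Of 3463 values of single genes under the alternatives 3171 kept their sign and their side of the threshold, 73 changed sign without a call in either analysis, 162 lost a call, 56 gained one and 1 moved, Ptgs2os2 in SFPQ-ABL1 against MSCV, at -4.15 with summed exon counts. The number of genes called depended on the processing most in SFPQ-ABL1 against MSCV, with 308 in the reported analysis, 110 with the 8 libraries of that comparison, 1131 with DESeq2, 198 with summed exon counts and 33 to 467 with 1 library left out. It was 33 without MSCV line 3, 84 without MSCV line 2 and also without line 4, 108, 467, 128 and 71 without SFPQ-ABL1 line 1, 2, 3 and 4, and 168 without BCR-ABL1 line 3. In SFPQ-ABL1 against BCR-ABL1 it was 4471, 2767 with summed exon counts and 3161 to 5026 with 1 library left out. In BCR-ABL1 against MSCV it was 5522, and 4474 to 5645 with 1 library left out. Members called in BCR-ABL1 against MSCV numbered 4, and 1 to 4 with 1 library left out. In SFPQ-ABL1 against MSCV they numbered 0, and 1 with DESeq2, which was Alox5ap. With fewer libraries or exon counts less data enter the test, and the cause of the other shifts was not tested. Members account for 17 of the 73 changes of sign, all from small values. In SFPQ-ABL1 against MSCV Ptges was -0.10 in the reported analysis and reached 0.38 without MSCV line 4, and Ltc4s was -0.10 and reached 0.14. Between the fusions Alox5 was -0.13 and reached 0.03, Alox5ap was -0.02 and reached 0.15, and Hpgds was 0.13 and reached -0.12. Ltc4s and Hpgds give no value under the filter of 1 CPM in 4 libraries, and they, Ptges and Pla2g2e give none with summed exon counts.

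The labels do not say that a replicate number marks a shared origin, and the reported analysis did not treat the numbers as pairs. In no comparison did every same-numbered pair correlate over 0.1, but some pairs did. Lines 3 and 4 were the closest pair in the SFPQ-ABL1 and MSCV groups (chi-square of 33.1 and 34.8 per degree of freedom). Whether some numbers share a batch was not tested. Deviations from the group means correlated between same-numbered lines at -0.00632 to 0.268 for BCR-ABL1 with MSCV, where 1 of 4 numbers matched best with its own. The range was 0.0665 to 0.385 for SFPQ-ABL1 with MSCV (2 of 4) and 0.0496 to 0.356 for both fusions (3 of 4). With the replicate number as a block more genes were called in each comparison. They numbered 6307 in BCR-ABL1 against MSCV, 726 in SFPQ-ABL1 against MSCV and 5336 in SFPQ-ABL1 against BCR-ABL1. The Alox5 call in BCR-ABL1 against MSCV was lost with the block (adjusted p = 0.0518). Low levels limit Pla2g2e and Ptgs2os2, which rest on at most 15 counts in each SFPQ-ABL1 line, and Ltc4s and Hpgds.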

Other observations

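The order of groups seen in Pla2g2e and Ptgs2os2, every BCR-ABL1 line above and every SFPQ-ABL1 line below every MSCV line, was shared by other genes. Those given here were picked after their values were seen, and all but Gm5122 were at higher levels. Spp1, which encodes the secreted protein osteopontin, averaged 424, 16.9 and 49.7 CPM with BCR-ABL1, SFPQ-ABL1 and MSCV. Ccr1, a chemokine receptor gene, averaged 9.75 CPM with BCR-ABL1, 0.258 with SFPQ-ABL1 and 1.76 with MSCV. Cebpb, a transcription factor of the C/EBP family, averaged 19.7 CPM with BCR-ABL1, 7.97 with SFPQ-ABL1 and 10.4 with MSCV. Gm5122, a long non-coding RNA gene, averaged 2.52 CPM with BCR-ABL1 and 0.136 with MSCV and had no count with SFPQ-ABL1.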
